A study of Homo sapiens with 24 samples.

Results

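The 10 genes described here are FOS, FOSB, FOSL1, FOSL2, JUN, JUNB, JUND, EGR1, IER2 and IER3. They were taken by gene symbol, and all 10 were listed both among the 22227 genes of the ligand tables and among the 23028 genes of the siRNA tables. The measurements are polyA RNA-seq of LNCaP, an established androgen-sensitive prostate adenocarcinoma cell line, in 2 experiments. All cells had been kept in phenol red-free medium with charcoal-stripped serum, which is poor in hormones, before treatment. In the ligand experiment cells received vehicle, 10 μM enzalutamide (MDV, an antiandrogen drug) or 10 nM DHT (dihydrotestosterone, a natural androgen) for 4 h or 24 h, with 2 biological replicates per condition and no time stated for vehicle. In the siRNA experiment cells were transfected with a non-targeting pool (siControl) or a pool against GATA2 (siGATA2), and 72 h later were given either vehicle or enzalutamide at 25 μM, both for 24 h, with 3 biological replicates per condition.

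These genes are classic immediate early genes or belong to the same gene families. Growth factor or stress signals reach the nucleus through MAP kinases. They switch many such genes on within minutes, from factors already bound at the promoters. The RNAs and proteins of many such genes decay quickly. Not every member behaves in this way, and JUND is kept at a steady high level in many cells. FOS, FOSB, FOSL1 and FOSL2 encode the FOS proteins, and JUN, JUNB and JUND the JUN proteins. A FOS and a JUN protein, or a pair of JUN proteins, form the dimer called AP-1, which binds DNA through basic leucine zippers. EGR1 encodes a zinc finger factor of the serum response, IER2 a small nuclear protein of the early response, and IER3 a stress-induced protein linked to survival and to ERK signalling. GATA2 is a zinc finger pioneer factor that helps open enhancers in prostate cells.

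Total estimated counts per ligand library ran from 38894876 to 59985287, and the siRNA libraries differed in relative depth by up to 1.31 times. The vehicle table of the ligand experiment held 4 columns, and the labels number 4 vehicle samples as separate replicates. In the column names, however, 3 of the 4 columns carry the same replicate number. These 3 columns differed less from each other (mean chi-square per gene of 1.51 to 1.54) than from the other column (3.42 to 3.59). The 3 were therefore summed and counted as 1 sample, against the numbering in the labels. KLK3, FOLH1, HOXB13, KRT8 and KRT18, defining genes of LNCaP cells, were all well expressed, the lowest value being 17.6 RPKM for KLK3. KRT5, TP63, PTPRC and PECAM1, which mark basal, blood and endothelial cells, were at 0.0295 RPKM or less, whereas the collagen gene COL1A1 lay between 9.62 and 16.3 RPKM in the siRNA libraries. Its mean was 10.1 RPKM in siControl cells under vehicle, 12.4 under enzalutamide and 14.7 in siGATA2 cells under either treatment, and the part of such cells or of this gene in the results was not tested. In the ligand experiment COL1A1 was at 23.9 CPM under vehicle and 15.2 CPM under DHT at 24 h. With edgeR it was called lower there against vehicle (-0.65 on the log2 scale), DHT at 4 h (-0.60) and enzalutamide at 24 h (-0.84). FOSL2 and EGR1 were called lower in the same comparisons, as were 23.2%, 23.5% and 33.6% of all genes in this order. In bulk RNA a change in the number of cells that express a gene and a change in RNA per cell cannot be told apart.

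The 10 genes differed widely in level. In siControl cells under vehicle, on the RPKM scale (reads per kilobase of gene, scaled to the mapped reads of the library), which allows genes to be compared with each other, JUND was the most abundant at 53.8 ± 4.91 RPKM (SD, n = 3), followed by JUNB at 39.0 ± 3.39, IER2 at 26.8 ± 1.94 and JUN at 26.2 ± 0.941. FOSL2 came next at 4.75 ± 0.386 and FOS at 1.28 ± 0.405. EGR1 (0.554 ± 0.0647), FOSB (0.236 ± 0.0452), FOSL1 (0.143 ± 0.0479) and IER3 (0.0910 ± 0.0264) were all below 1 RPKM. In this order IER2 and JUN overlapped, as did FOSL1 and IER3, and every other pair of neighbours was separated in all libraries. These transfected control cells under vehicle thus held much JUN family RNA and little FOS family RNA.

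The summed RPKM of the JUN family exceeded that of the FOS family by 18.7 ± 1.35 times in siControl cells under vehicle. FOSL2 alone made up 74.5% ± 4.27 of the FOS family sum and FOS 19.7% ± 3.71. JUND held 45.2% ± 1.76 of the JUN family sum and JUN 22.1% ± 0.916. The low members rest on few reads. From the steps between small RPKM values, FOS was counted with about 130 to 718 reads per siRNA library, EGR1 with 83 to 138, FOSB with 40 to 65 and FOSL1 with 11 to 26.

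Promoter sequence was taken for the 8 members that have an entry in the RefSeq table of gene starts (build GRCh38.p14), which leaves out FOSL1 and IER3. In the 250 bases before each of these starts 7 motifs were searched on both strands. The RefSeq starts of FOS, JUN and FOSL2 lie downstream of the GENCODE gene starts given below. Their windows thus fall partly (FOS) or wholly (JUN and FOSL2) within the GENCODE gene. They were the AP-1 site TGACTCA, the cAMP response element TGACGTCA, its core TGACGT, which lies within the former, the variant TGACATCA, the CArG box bound by serum response factor, the EGR site GCGGGGGCG or GCGTGGGCG, and the GATA letters AGATAA or TGATAA. The promoters of FOS, JUN, JUND and EGR1 are printed here 5′ to 3′ on the strand of the gene with matches in capitals. FOS and JUN were chosen because they had the largest fold changes of the members in the siRNA experiment. Within the windows of 250 bases, JUND alone held the full cAMP response element, and EGR1 alone held CArG boxes. Sequence farther upstream was not searched, so that sites there would be missed.
FOS: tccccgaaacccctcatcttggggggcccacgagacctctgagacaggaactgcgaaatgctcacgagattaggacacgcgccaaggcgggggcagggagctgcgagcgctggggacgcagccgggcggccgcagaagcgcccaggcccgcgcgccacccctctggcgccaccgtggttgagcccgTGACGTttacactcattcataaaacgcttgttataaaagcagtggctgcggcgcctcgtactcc
JUN: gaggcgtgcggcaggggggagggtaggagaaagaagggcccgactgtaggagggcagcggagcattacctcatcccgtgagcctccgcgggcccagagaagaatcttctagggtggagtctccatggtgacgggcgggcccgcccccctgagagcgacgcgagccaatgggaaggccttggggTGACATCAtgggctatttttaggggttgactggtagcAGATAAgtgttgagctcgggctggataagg
JUND: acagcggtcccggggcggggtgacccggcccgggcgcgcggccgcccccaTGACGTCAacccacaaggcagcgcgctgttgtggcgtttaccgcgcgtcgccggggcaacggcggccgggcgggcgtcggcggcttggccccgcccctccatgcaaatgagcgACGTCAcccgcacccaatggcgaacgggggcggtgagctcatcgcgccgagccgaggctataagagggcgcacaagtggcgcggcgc
EGR1: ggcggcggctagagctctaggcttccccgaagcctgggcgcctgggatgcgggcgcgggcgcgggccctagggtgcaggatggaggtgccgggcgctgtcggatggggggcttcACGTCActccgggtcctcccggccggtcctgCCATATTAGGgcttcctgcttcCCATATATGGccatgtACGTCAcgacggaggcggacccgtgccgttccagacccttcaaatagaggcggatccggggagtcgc
The printed stretches are chr14:75278578-75278827 for FOS on the plus strand, chr1:58784048-58784297 for JUN on the minus strand, chr19:18281623-18281872 for JUND on the minus strand and chr5:138465229-138465478 for EGR1 on the plus strand.

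The core TGACGT occurred in 5 of the 8 promoters (FOS, FOSB, FOSL2, JUND and EGR1), against 7.10% of all 35116 promoters in the table. In FOS it began 64 bases before the start, in FOSB 60 and in FOSL2 66. JUN instead carried TGACATCA 67 bases before its start, a string found in 2.37% of promoters, and the GATA letters AGATAA 30 bases before it, a string class found in 14.6%. The pair of CArG boxes of EGR1 began 105 and 83 bases before its start, and 1.16% of promoters had such a box. The letters TGACTCA and the EGR sites were in none of the 8 windows, while 4.20% and 5.37% of all promoters held them. JUNB and IER2 had no match to any of these letters. These matches are descriptions of sequence, and binding at them was not measured here.

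In GENCODE v29 (GRCh38) the FOS family lies at chr14:75278774-75282230 (FOS), chr19:45467995-45475179 (FOSB), chr11:65892049-65900573 (FOSL1, minus strand) and chr2:28392448-28417312 (FOSL2). The JUN family lies at chr1:58780788-58784327 (JUN, minus strand), chr19:12791496-12793315 (JUNB) and chr19:18279760-18281622 (JUND, minus strand). EGR1 is at chr5:138465490-138469315, IER2 at chr19:13150415-13154908 and IER3 at chr6:30743199-30744554 on the minus strand, and the genes without a strand named are on the plus strand. The deposited tables hold no coordinates and were made on hg19. Several members share their locus with another gene. FOSB lies within the span of ERCC1 on the opposite strand but shares no exon bases with it. JUNB lies within the span of HOOK2, with 259 of its 1820 exon bases shared, IER2 shares 946 of its 3072 exon bases with an unnamed antisense gene, and IER3 shares 359 of its 1356 exon bases with the antisense gene IER3-AS1. The library kit marks the strand, but whether counting used it is not given in the sources used here, so that reads of such pairs may not be fully separated.

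The siRNA experiment asked how GATA2 bears on the response to enzalutamide. GATA2 itself, the targeted gene, measured 83.8, 77.0 and 86.1 RPKM in the siControl vehicle libraries and 54.3, 53.4 and 46.6 in the siGATA2 vehicle libraries, 62.5% of the control mean. Under enzalutamide it measured 128, 132 and 128 RPKM in siControl and 60.1, 64.7 and 61.5 in siGATA2, or 48.1%. The siGATA2 libraries were below their controls in both treatments without overlap, and much GATA2 RNA was still present.

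In siControl cells 25 μM enzalutamide for 24 h raised FOS, JUNB and IER2. These were 3 of the 10 members called (adjusted p below 0.05 with limma over all 20369 genes tested), all higher, whereas 42.1% of all genes were called, 17.7% higher and 24.4% lower. The share of members called is thus no larger than that of all genes. The median log2 fold change of the 10 members was 0.08 beside -0.02 over all genes tested. Fold changes in this experiment are on the scale of log2(RPKM + 0.1), which understates changes of the lowest genes.

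FOS, the founding FOS protein gene, measured 1.30, 0.868 and 1.68 RPKM under vehicle and 3.43, 3.83 and 4.46 RPKM under enzalutamide. The groups did not overlap, and the fitted rise was 2.97-fold (95% confidence interval 1.93 to 4.59, adjusted p = 0.00113 with limma). JUNB, often a brake on JUN-driven transcription, went from 40.6, 35.1 and 41.3 RPKM to 60.3, 63.2 and 68.6 RPKM. It rose 1.64-fold (1.41 to 1.92, adjusted p = 0.000224 with limma), again without overlap. Over all genes tested, 21.7% had every library higher and 28.7% every library lower in this comparison. HOOK2, which shares bases with JUNB, had a mean of 25.8 ± 0.859 RPKM under vehicle and 27.03 ± 0.853 under enzalutamide.

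IER2 showed a smaller rise. Its libraries lay between 24.6 and 28.5 RPKM under vehicle and between 31.2 and 33.3 RPKM under enzalutamide, a rise of 1.19-fold (1.08 to 1.32, adjusted p = 0.00729 with limma). JUND, the member kept at a steady high level in many cells, was higher by 1.29-fold (1.05 to 1.60) with an adjusted p of 0.0508 by limma, just outside the threshold. JUN stood at 26.7, 25.1 and 26.8 RPKM before and 24.8, 25.8 and 25.8 RPKM after treatment, overlapping groups with a fold of 0.972 (0.878 to 1.07). FOSL2 had a fold of 1.11 (0.987 to 1.25), and FOSB, FOSL1, EGR1 and IER3 had folds between 0.875 and 1.01 that did not pass the test. The share of FOS in the FOS family sum was 40.8% ± 2.40 under enzalutamide, with libraries from 39.2% to 43.6%, above the 15.8% to 23.2% of the vehicle libraries.

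**Figure D1:**
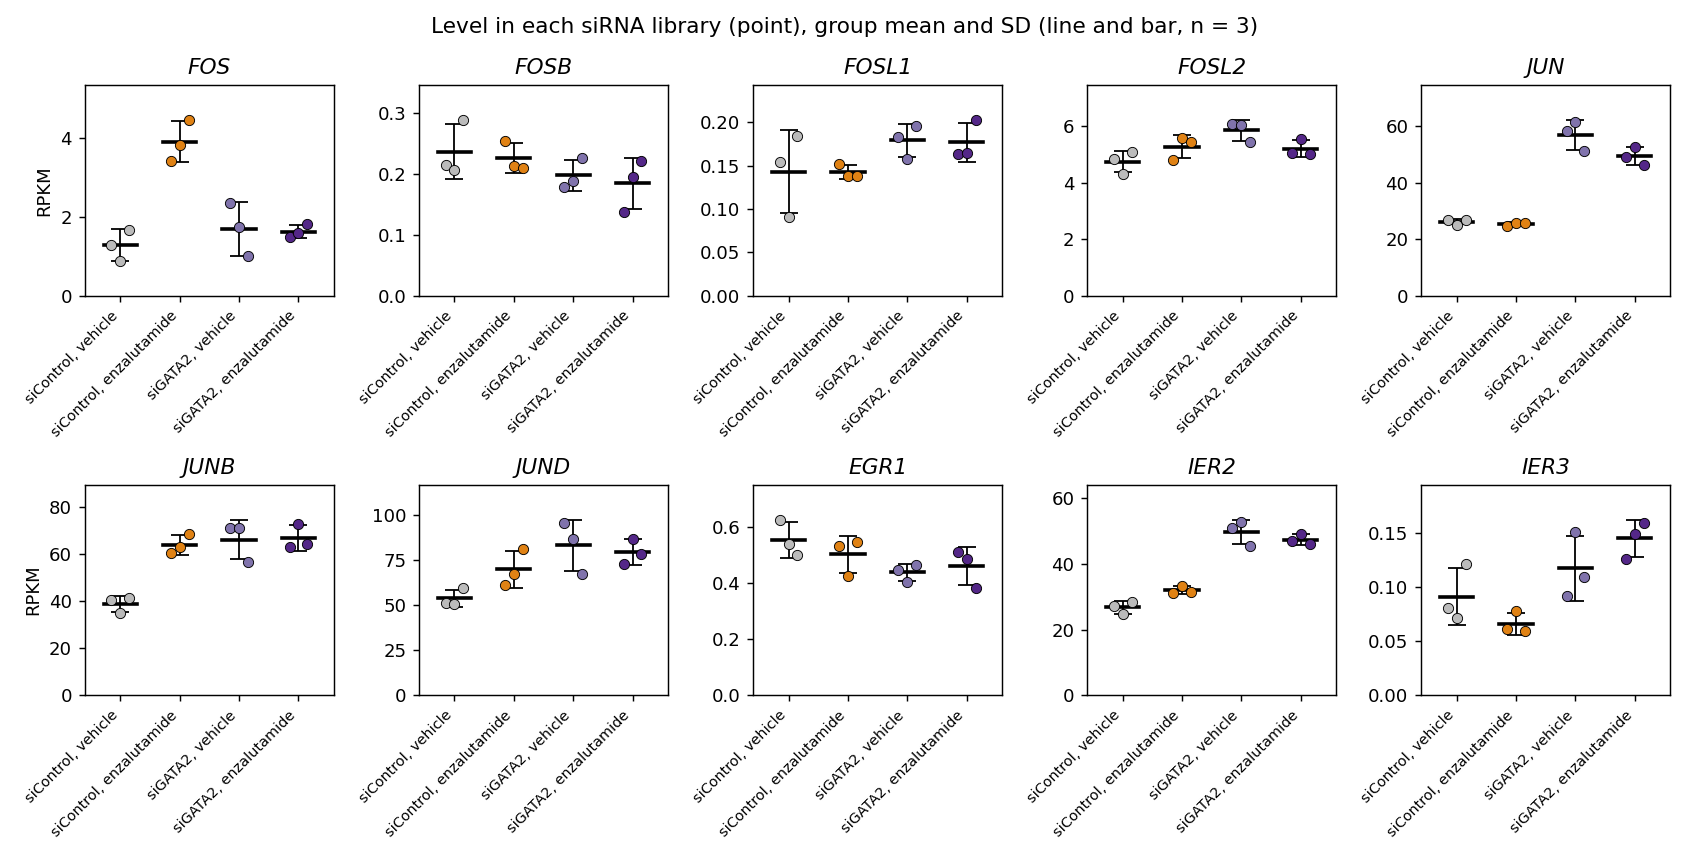
Level of the 10 genes in RPKM (vertical axes, from 0) in the 12 siRNA libraries (points), with the group mean (line) and SD (bar, n = 3). The 3 siControl enzalutamide libraries of FOS lie between 3.43 and 4.46 RPKM, above all 9 others, and JUN and IER2 are higher in all 6 siGATA2 libraries than in the 6 siControl libraries.

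In siGATA2 cells none of the 10 members was called for enzalutamide against vehicle with limma, and 1 (JUN) had an unadjusted p under 0.05. Over all genes 0.412% were called in this comparison, 0.221% higher and 0.191% lower. FOS measured 2.35, 1.74 and 0.999 RPKM under vehicle and 1.50, 1.58 and 1.81 under enzalutamide. The enzalutamide libraries fell inside the range of the vehicle libraries, with a fold of 1.01 whose interval of 0.655 to 1.56 still allows moderate changes either way. JUNB had a fold of 1.01 (0.867 to 1.18) and IER2 one of 0.956 (0.868 to 1.05). JUN was lower by a fold of 0.869 (0.786 to 0.961, adjusted p = 0.289 with limma). The median log2 fold change of the members was -0.03 and that of all genes -0.01.

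The difference between both responses was tested directly as an interaction of siRNA and enzalutamide. It was negative and passed the threshold for FOS, JUNB and IER2, 3 of the 10 members, beside 25.8% of all genes (15% positive and 10.8% negative). The log2 difference was -1.56 for FOS (SE 0.398, adjusted p = 0.0161 with limma), -0.70 for JUNB (SE 0.142, adjusted p = 0.00507) and -0.32 for IER2 (SE 0.0887, adjusted p = 0.0227). The call on IER2 is near the threshold and was lost when replicate 1 or 3 of siGATA2 under enzalutamide, replicate 1 or 2 of siGATA2 under vehicle, or replicate 2 of siControl under enzalutamide was left out (adjusted p of 0.0501 to 0.0558 with limma). FOSL2 stood at -0.32 with an adjusted p of 0.0549 by limma and JUND at -0.42 with 0.141. FOSL2 passed with quantile normalization (adjusted p = 0.0339 with limma), among genes with a mean of at least 1 RPKM (0.0223), and without replicate 2 of siGATA2 under enzalutamide (0.0427), replicate 3 of siControl under vehicle (0.0401) or replicate 1 of siControl under enzalutamide (0.0263). The median of the 10 members was -0.24 on the log2 scale beside 0.01 over all genes. Replicate 3 of siGATA2 under vehicle, lowest of its group for FOS, FOSL2, JUN, JUNB, JUND and IER2, bears on this count. Without it 6 members passed, JUN (-0.24), JUND (-0.57) and FOSL2 (-0.37) being added. The share of all genes that passed without this library was not computed, so that this count has no share beside it.

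Under vehicle, siGATA2 raised the whole JUN family together with IER2 and FOSL2. These were 5 of 10 members called, all higher, with 55.6% of all genes called in either direction, 24.2% higher and 31.4% lower. The median log2 fold change of the members was 0.32 and that of all genes -0.03. This comparison and the ones above share control libraries, so they are not independent of each other.

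JUN, the partner that gives AP-1 strong transactivation, moved most. Its siControl values of 26.7, 25.1 and 26.8 RPKM compare with 58.2, 61.4 and 51.1 RPKM in siGATA2 cells, a rise of 2.16-fold (1.95 to 2.39, adjusted p = 1.51e-07 with limma). No library of one group came near the other. Its share of the JUN family sum was 27.7% ± 1.65, against 22.1% ± 0.916 in siControl.

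IER2 moved almost as far, from 27.2, 24.6 and 28.5 RPKM to 51.0, 52.6 and 45.5 RPKM (1.85-fold, 1.68 to 2.04, adjusted p = 5.77e-07 with limma). JUNB went from 40.6, 35.1 and 41.3 RPKM to 71.0, 71.1 and 56.5 RPKM (1.69-fold, 1.45 to 1.97, adjusted p = 7.36e-05 with limma), while HOOK2 was at 26.1 ± 0.937 RPKM in siGATA2 cells. JUND went from 51.2, 50.7 and 59.5 RPKM to 95.4, 86.7 and 67.6 RPKM (1.53-fold, 1.24 to 1.89, adjusted p = 0.00272 with limma). None of these groups overlapped, and replicate 3 of siGATA2 was the lowest of its group in each. Every library was higher for 25.6% of all genes tested and lower for 33.3%.

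FOSL2, which encodes FRA2, rose 1.23-fold (1.09 to 1.38, adjusted p = 0.00623 with limma), from 4.32 to 5.08 RPKM in siControl libraries to 5.44 to 6.08 RPKM in siGATA2 libraries. FOS ranged from 0.868 to 1.68 RPKM in siControl and from 0.999 to 2.35 RPKM in siGATA2, with a fold of 1.27 (0.825 to 1.96) that did not pass the test. Leaving out replicate 3 of siGATA2 under vehicle gave FOS a log2 fold change of 0.66 with an adjusted p of 0.0360 by limma, so that 1 library decides this call. EGR1 was lower by a fold of 0.825 (0.683 to 0.995, adjusted p = 0.0764 with limma), and FOSB, FOSL1 and IER3 did not pass the test.

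Under enzalutamide siGATA2 cells differed from siControl cells in 4 of 10 members, 3 higher and 1 lower, beside 54.5% of all genes (26.3% higher and 28.1% lower). JUN again was higher, at 49.3, 52.7 and 46.2 RPKM against 24.8, 25.8 and 25.8 RPKM (1.93-fold, 1.75 to 2.14, adjusted p = 4.94e-07 with limma). IER2 was at 47.1, 49.1 and 46.1 RPKM against 31.2, 33.3 and 31.3 RPKM (1.48-fold, 1.35 to 1.63, adjusted p = 1.92e-05 with limma). Neither gene overlapped between the groups, and 29.5% of all genes tested had every library higher and 31.6% every library lower.

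FOS went the other way under enzalutamide. It was at 1.50, 1.58 and 1.81 RPKM in siGATA2 cells and at 3.43, 3.83 and 4.46 RPKM in siControl cells, a fold of 0.433 (0.281 to 0.668, adjusted p = 0.00376 with limma) without overlap. JUNB, at 63.0 to 73.0 RPKM against 60.3 to 68.6 RPKM, had a fold of 1.04 (0.892 to 1.22) and JUND one of 1.14 (0.926 to 1.41). The groups overlapped for both genes.

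IER3 was listed at 0.0615, 0.0779 and 0.0594 RPKM in siControl cells under enzalutamide and at 0.126, 0.149 and 0.160 RPKM in siGATA2 cells. The groups did not overlap and the fitted fold was 1.47 (1.22 to 1.77, adjusted p = 0.00229 with limma). All these values are below 0.2 RPKM. The antisense gene IER3-AS1 was also higher in siGATA2 cells, at 4.51 ± 0.0625 RPKM against 2.79 ± 0.101 RPKM. Under vehicle IER3-AS1 was higher as well, at 4.37 ± 0.0979 RPKM against 2.50 ± 0.0646 RPKM. IER3 was not called there, with a fold of 1.14 (0.945 to 1.37). The part of IER3-AS1 reads in the IER3 value was not tested. In the ligand libraries IER3 had 0 to 4 counts each.

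**Figure D2:**
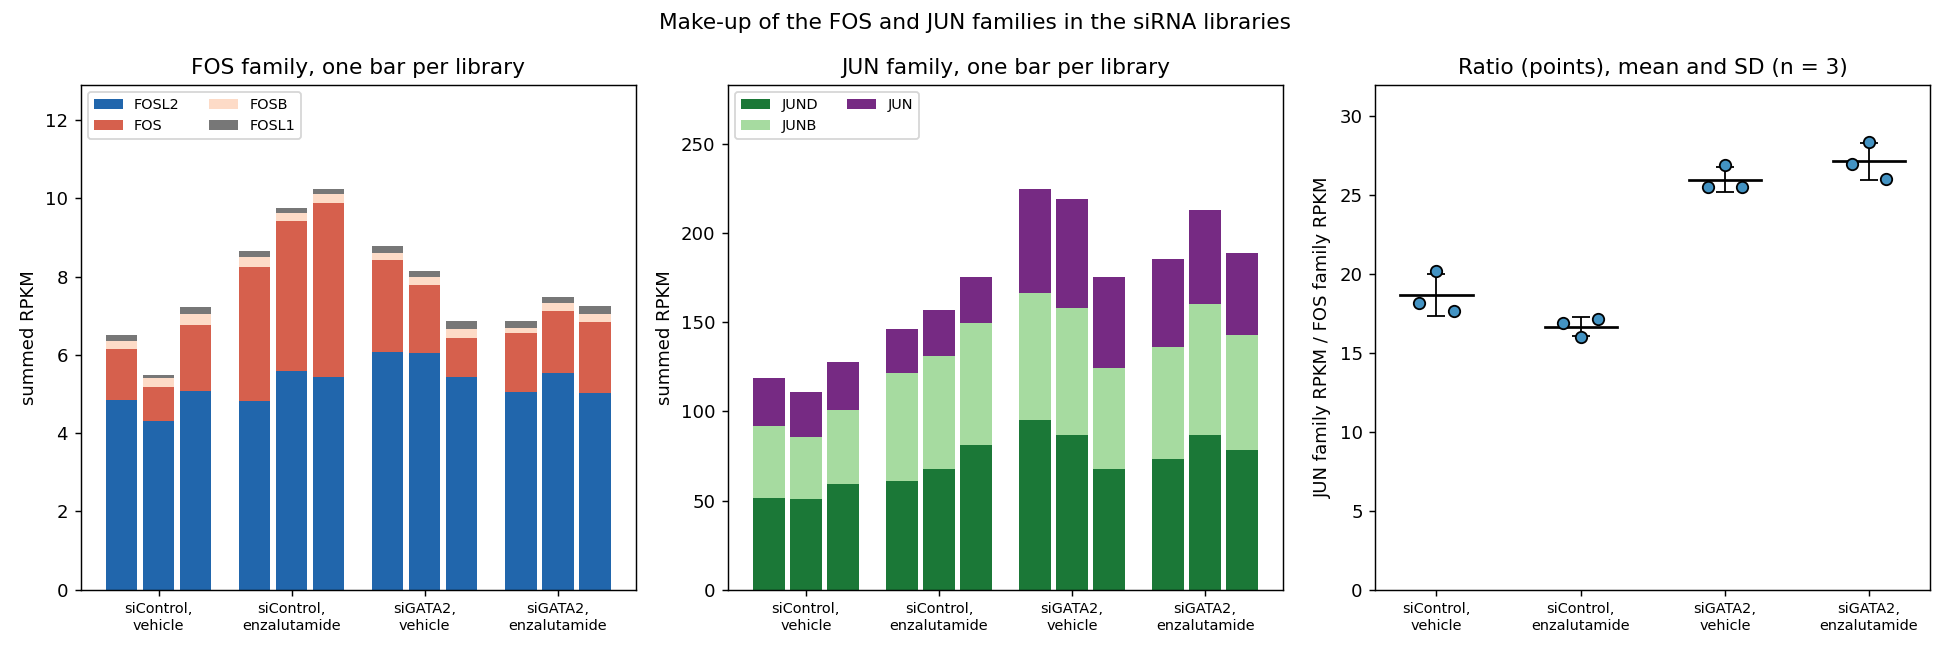
Summed RPKM of the FOS family (left) and JUN family (middle) in each siRNA library, with 1 bar per library divided by gene, and the ratio of both sums (right, points per library with mean and SD, n = 3). FOS widens from 19.7% to 40.8% of the FOS family in siControl cells under enzalutamide, and the ratio stands between 25.5 and 28.4 in the siGATA2 libraries and between 16.0 and 20.2 in the siControl libraries.

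The balance of the families is given here without a test. The JUN family sum was 119 ± 8.33 RPKM in siControl under vehicle, 159 ± 14.8 under enzalutamide, 206 ± 27.1 in siGATA2 under vehicle and 196 ± 14.8 in siGATA2 under enzalutamide. The FOS family sum was 6.41 ± 0.874, 9.55 ± 0.809, 7.93 ± 0.983 and 7.20 ± 0.316 RPKM in the same order. Their ratio was 16.7 ± 0.576 in siControl under enzalutamide, between 25.5 and 26.9 in siGATA2 under vehicle and 27.2 ± 1.18 in siGATA2 under enzalutamide.

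The ligand experiment compared enzalutamide with DHT over time, at a lower enzalutamide dose and without transfection. FOSL1, with 2 to 8 counts per library, and IER3 failed the filter on low counts, which left 8 of the 10 members among the 15555 genes tested with edgeR. Values are estimated counts scaled to the total of the library (CPM), which are not corrected for gene length. FOS had only 11 to 38 counts per library and EGR1 18 to 67, so that changes of either gene are measured with wide intervals. No member passed a threshold of a 2-fold change with an unadjusted p under 0.05 against vehicle in any of the 4 ligand conditions.

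At 4 h, 10 μM enzalutamide lowered JUN, the only member called by edgeR, beside 13.6% of all genes (6.94% higher and 6.68% lower). No member was called higher, with 0 also at an unadjusted p under 0.05 and 0 by DESeq2. JUN measured 97.4 and 107 CPM under vehicle and 91.0 and 84.7 CPM under enzalutamide. The groups did not overlap (as for 25.6% of all genes higher and 24.2% lower), and the fall was small, with a fold of 0.860 (95% confidence interval 0.795 to 0.929, adjusted p = 0.0151 with edgeR). The call was lost without enzalutamide replicate 2 (adjusted p = 0.0874) or vehicle replicate 2 (0.121). EGR1 stood at 1.11 and 0.787 CPM under vehicle and at 0.753 and 0.365 CPM under enzalutamide, a fold of 0.566 (0.362 to 0.886) with an adjusted p of 0.0915 by edgeR, and it was called without enzalutamide replicate 1 (log2 fold change -1.40, adjusted p = 0.00948). FOS stood at 0.380 and 0.406 CPM under vehicle and at 0.470 and 0.750 CPM under enzalutamide, a fold of 1.58 (0.992 to 2.51, adjusted p = 0.191). The members' median log2 fold change was -0.08 beside 0.00149 over all genes.

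At 24 h enzalutamide lowered JUN and JUND and, with edgeR, raised no member at the threshold, beside 33.4% of all genes called (16.4% higher and 17% lower). At an unadjusted p under 0.05, 2 members were higher, and DESeq2 called 0 higher. JUND went from 73.8 and 79.7 CPM to 66.7 and 65.3 CPM (fold 0.861, 0.805 to 0.921, adjusted p = 0.00237 with edgeR), and JUN from 97.4 and 107 CPM to 91.5 and 89.3 CPM (fold 0.885, 0.819 to 0.956, adjusted p = 0.0188 with edgeR). The JUN call was lost without either enzalutamide 24 h replicate (adjusted p of 0.0501 and 0.104) or vehicle replicate 2 (0.144). FOS was at 0.532 and 0.766 CPM, both above vehicle, with a fold of 1.66 (1.05 to 2.60, adjusted p = 0.0827 with edgeR). FOSB was at 1.12 and 1.13 CPM against 0.842 and 0.660 CPM (fold 1.47, 1.05 to 2.06, adjusted p = 0.0739 with edgeR). Over all genes tested, 36% had both libraries above vehicle and 31.7% both below in this comparison. JUNB, IER2, FOSL2 and EGR1 had folds between 0.998 and 1.05. The median was 0.03 on the log2 scale beside 0.01 over all genes.

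The column names of the ligand tables carry a set number, and the sets do not cross the conditions evenly. Both DHT 4 h libraries are in one set, both enzalutamide 4 h libraries in the next and both enzalutamide 24 h libraries in the last, while vehicle replicate 1 is in all 3. Set 1 held 2 vehicle columns of different replicates, and each other set held 1. Within sets, DHT at 4 h was thus compared with 2 vehicle samples, and enzalutamide at both times and DHT at 24 h with 1 each. Against the vehicle columns of the same set alone, JUN had a log2 fold change of -0.20 for enzalutamide at 4 h and of -0.04 at 24 h. Over all vehicle columns these values were -0.22 and -0.18. Neither fall of JUN passed within a set, but with 1 vehicle sample a lost call and lost replication cannot be told apart. JUND at 24 h was at -0.19 within its set, beside -0.22 over all vehicle columns.

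**Figure D3:**
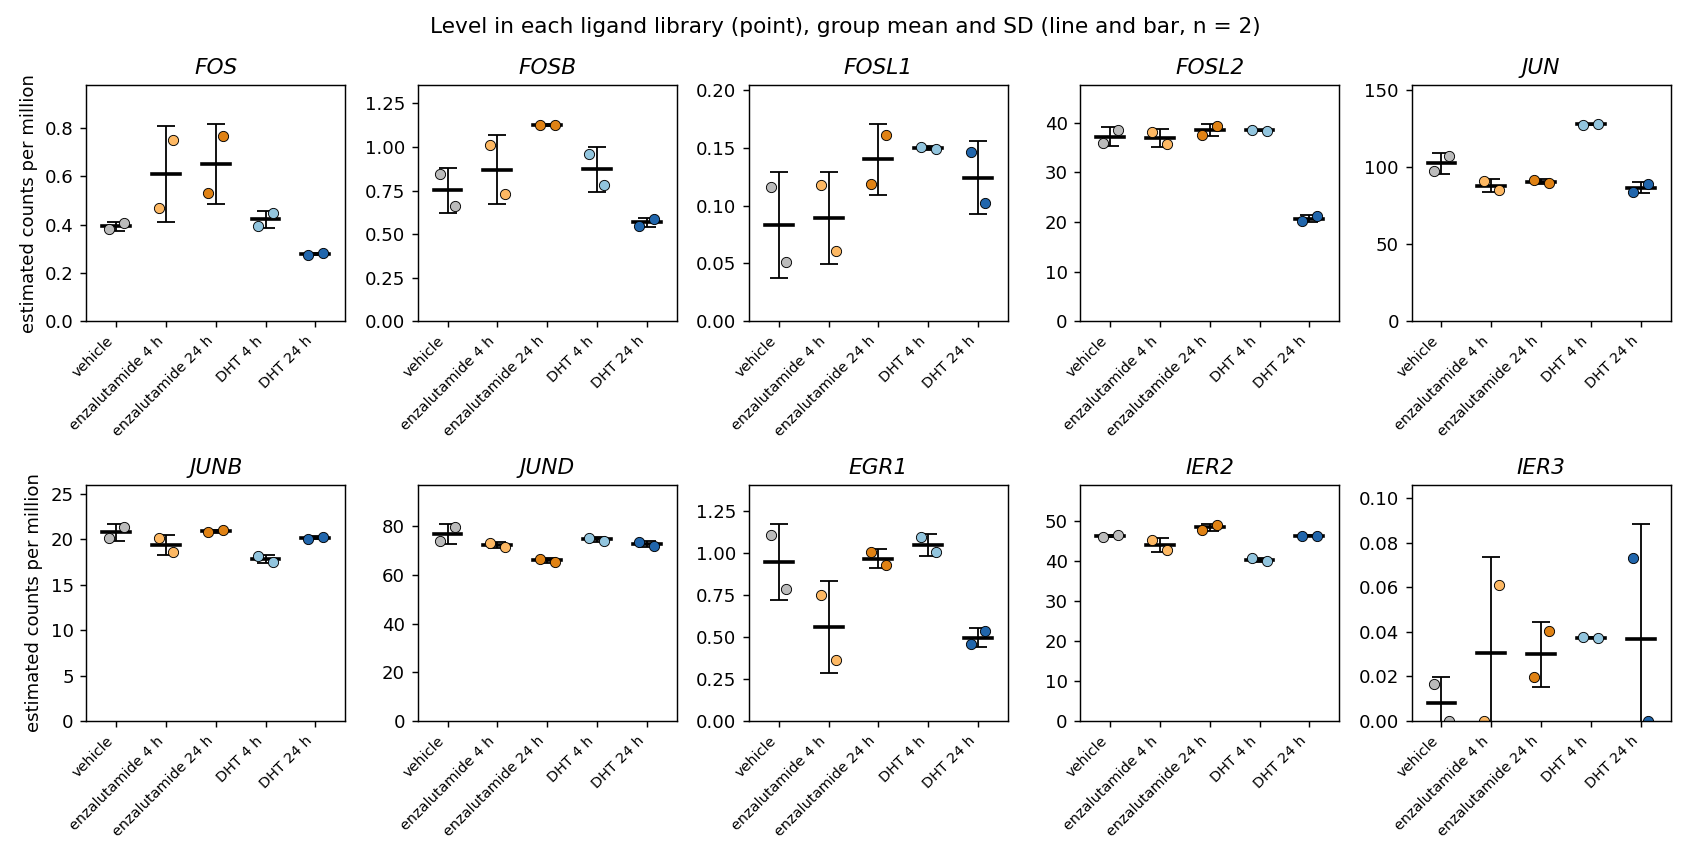
Level of the 10 genes in CPM (vertical axes, from 0) in the 10 ligand libraries (points), with the group mean (line) and SD (bar, n = 2). JUN stands at 127 to 128 CPM in both DHT 4 h libraries, above all others, and FOSL2 at 20.2 to 21.1 CPM in both DHT 24 h libraries, below all others.

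JUN was higher than vehicle at 4 h of DHT and lower at 24 h. At 4 h, 3 of the 8 tested members were called with edgeR, 1 higher and 2 lower, beside 6.77% of all genes (4.66% higher and 2.11% lower). JUN rose from 97.4 and 107 CPM under vehicle to 127 and 128 CPM (fold 1.25, 1.16 to 1.35, adjusted p = 0.00127 with edgeR). IER2 fell from 46.2 and 46.5 CPM to 40.8 and 40.01 CPM (fold 0.872, 0.815 to 0.932, adjusted p = 0.0151 with edgeR), and JUNB from 20.1 and 21.4 CPM to 18.1 and 17.5 CPM (fold 0.860, 0.787 to 0.940, adjusted p = 0.0434 with edgeR). None of these groups overlapped, which held for 25% of all genes tested in the higher and 27.3% in the lower direction. The IER2 call was lost without either DHT 4 h replicate or either vehicle replicate (adjusted p of 0.0722 to 0.177 with edgeR), and that on JUNB without any 1 of the 8 libraries other than those of enzalutamide at 4 h (0.0626 to 0.317). The JUNB call was also lost with DESeq2 (adjusted p = 0.158). Within the same set JUN stayed called at a log2 fold change of 0.30 (adjusted p = 0.00169 with edgeR) and IER2 at -0.18 (0.0368), whereas JUNB did not (adjusted p = 0.0543). FOS, FOSB, FOSL2, JUND and EGR1 had folds between 0.973 and 1.14. The members' median was 0.08 on the log2 scale beside -0.01 over all genes.

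At 24 h of DHT 3 of 8 members were called with edgeR, all lower, beside 50% of all genes (26.9% higher and 23.2% lower). No member was called higher, with 0 also at an unadjusted p under 0.05 and 0 by DESeq2. FOSL2 fell most clearly, from 35.8 and 38.5 CPM to 20.2 and 21.1 CPM (fold 0.557, 0.511 to 0.606, adjusted p = 6.71e-08 with edgeR). EGR1 fell from 1.11 and 0.787 CPM to 0.457 and 0.535 CPM (fold 0.508, 0.322 to 0.802, adjusted p = 0.0169 with edgeR), and JUN from 97.4 and 107 CPM to 83.9 and 89.2 CPM (fold 0.846, 0.783 to 0.915, adjusted p = 0.00177 with edgeR). No group overlapped with vehicle in these genes, but 37.6% of all genes tested had both libraries above vehicle and 35.8% both below. FOS (0.274 and 0.280 CPM) and FOSB (0.549 and 0.586 CPM) were also below both vehicle libraries, with folds of 0.711 (0.413 to 1.22) and 0.740 (0.504 to 1.09) that did not pass the test. The median was -0.34 beside 0.00135 over all genes. Against the vehicle columns of the same sets, which make up 1 sample, JUN had a log2 fold change of -0.16. Over all vehicle columns this value was -0.24. The call on EGR1 was lost with DESeq2 (adjusted p = 0.0737) and against the vehicle columns of the same sets with edgeR (0.0735). It was also lost without DHT 24 h replicate 1 (0.116) or vehicle replicate 1 (0.193).

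Setting DHT against enzalutamide at the same time gave differences in FOS, FOSB and FOSL2 at 24 h. In that comparison 5 members were called with edgeR, 4 lower and 1 higher under DHT, beside 64.9% of all genes (33.6% lower and 31.3% higher). FOS was lower under DHT by a fold of 0.429 (0.262 to 0.703), FOSB by 0.503 (0.351 to 0.721), FOSL2 by 0.537 (0.493 to 0.585) and EGR1 by 0.509 (0.323 to 0.803), and JUND was higher by 1.10 (1.03 to 1.18). At 4 h JUN (1.45, 1.34 to 1.57) and EGR1 (1.91, 1.23 to 2.96) were higher under DHT, 2 of 8 members beside 15.8% of all genes (8.49% higher and 7.28% lower). The adjusted p with edgeR was 8.25e-06 for JUN but 0.0468 for EGR1, near the threshold. At 4 h the ligands were in different sets, so that set and ligand cannot be told apart there. At 24 h DHT replicate 1 was in set 2, and DHT replicate 2 shared set 3 with both enzalutamide libraries, so that set and ligand are partly mixed there too. The doses were 10 nM of an androgen and 10 μM of an antiandrogen, so that these are differences between treatments and not at matched doses.

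From 4 h to 24 h of DHT, 5 of 8 members were called with edgeR, beside 49.8% of all genes (26.3% higher and 23.5% lower). FOSL2 (fold 0.537, 0.494 to 0.585), JUN (0.678, 0.628 to 0.733) and EGR1 (0.470, 0.301 to 0.734) were lower at the later time, while JUNB (1.13, 1.04 to 1.24) and IER2 (1.15, 1.07 to 1.23) were higher. Between both times of enzalutamide 2 members were called, beside 24.6% of all genes (11.7% higher and 12.9% lower). JUND was lower at 24 h (fold 0.913, 0.853 to 0.976) and IER2 higher (1.10, 1.03 to 1.18). Both were near the threshold, with an adjusted p by edgeR of 0.0488 for JUND and 0.0340 for IER2. The times of each ligand come from different sets, and set and time cannot be told apart.

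**Figure D4:**
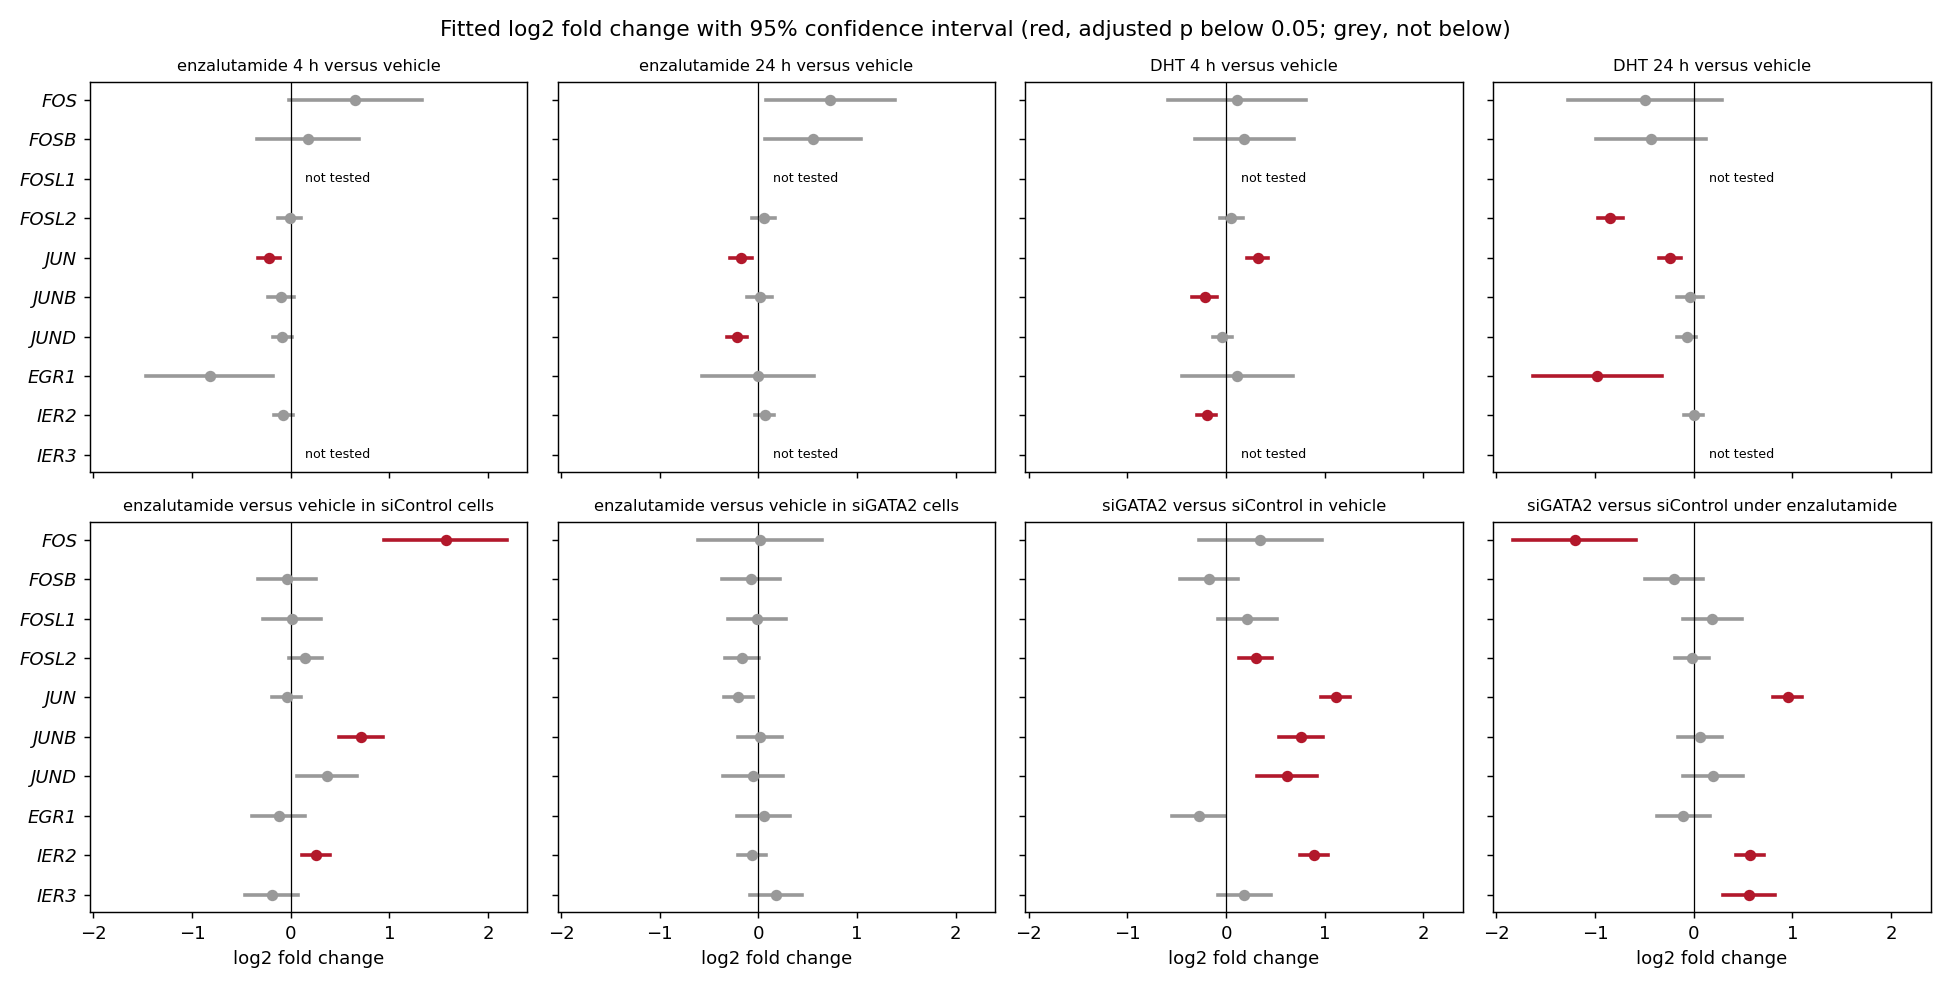
Fitted log2 fold change of each gene (horizontal axis) with its 95% confidence interval in the 4 ligand comparisons (upper row, edgeR) and 4 siRNA comparisons (lower row, limma), in red where the adjusted p is below 0.05. FOS reaches 1.57 under enzalutamide in siControl cells and 0.02 in siGATA2 cells, and the intervals of FOS and EGR1 in the ligand experiment are wide.

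Both experiments held a 24 h enzalutamide group, at 10 μM and at 25 μM, and their values are set side by side without a test because dose and transfection differed. FOS had a fold of 1.66 at 10 μM and of 2.97 at 25 μM, JUNB of 1.01 (0.925 to 1.10) and 1.64, IER2 of 1.05 (0.980 to 1.12) and 1.19, JUND of 0.861 and 1.29, and JUN of 0.885 and 0.972.

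Other genes of the early response were taken from 5 lists with 86 genes in all, of other immediate early transcription factors, other AP-1 partners, feedback inhibitors, secreted and cytoskeletal early genes, and upstream activators. Under enzalutamide in siControl cells, 29 of the 83 tested were called higher and 17 lower, beside 17.7% and 24.4% of all genes. Feedback inhibitors, which shut the response off, had 13 higher and 2 lower of 23, with a median log2 fold change of 0.27 beside -0.02 over all genes, and upstream activators had 2 higher and 6 lower of 19. Among the called genes with large changes were PHLDA1, an early gene of apoptosis control, which fell from 2.74 to 0.786 RPKM, and the stress factor ATF3, which rose from 11.8 to 29.4 RPKM. In siGATA2 cells enzalutamide gave 1 higher and 1 lower of 83, beside 0.221% and 0.191% of all genes.

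With siGATA2 under vehicle 38 of these 83 genes were higher and 25 lower, beside 24.2% and 31.4% of all genes. Feedback inhibitors had 13 higher and 7 lower of 23 (median 0.18), and secreted and cytoskeletal early genes 6 higher and 8 lower of 16 (median -0.39). CYR61, a matricellular early gene, rose from 3.23 to 14.4 RPKM, DUSP1, the phosphatase that turns MAP kinases off, from 7.26 to 27.9 RPKM, and PHLDA1 fell from 2.74 to 0.630 RPKM. Under enzalutamide 32 were higher and 30 lower in siGATA2 cells, beside 26.3% and 28.1% of all genes. CYR61 was again higher, by 4.35-fold, whereas the antiproliferative gene BTG2 was at 14.7 against 59.2 RPKM and SRF, the factor that binds CArG boxes, at 4.72 against 16.4 RPKM. The interaction was positive for 7 and negative for 22 of the 83, beside 15% and 10.8% of all genes, with ATF3 at -1.35, MAFF at -0.98 and PHLDA1 at 1.58 on the log2 scale.

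In the ligand experiment 76 of the 86 list genes were tested. Enzalutamide gave 11 higher and 8 lower at 4 h, beside 6.94% and 6.68% of all genes, and 16 higher and 12 lower at 24 h, beside 16.4% and 17%. ATF3 rose from 27.2 to 49.0 CPM at 4 h, and the AP-1 repressor JDP2 from 11.7 to 19.9 CPM at 4 h and to 17.3 CPM at 24 h, with GADD45A, a growth arrest gene, at 14.3 and 14.5 CPM against 9.61 CPM. DHT gave 16 higher and 5 lower at 4 h, beside 4.66% and 2.11% of all genes, and 24 higher and 23 lower at 24 h, beside 26.9% and 23.2%. MAF, another AP-1 partner, rose from 7.88 CPM to 32.9 CPM at 4 h and 18.3 CPM at 24 h. ERRFI1, an inhibitor of EGF receptor signalling, rose from 38.0 to 68.8 CPM and KLF6 from 10.1 to 18.2 CPM at 4 h. At 24 h DUSP4 rose from 11.9 to 29.5 CPM and the growth factor gene HBEGF fell from 5.22 to 2.77 CPM.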

How the data were processed

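PolyA RNA-seq values of LNCaP cells from the ligand experiment (10 libraries) and the siRNA experiment (12 libraries) were used, and groups came from the sample labels. Per the labels, the authors aligned reads to hg19 with TopHat2 2.0 and used Partek, and the annotation version is not given in the sources used here. For the ligand experiment the authors deposited estimated counts per gene, which were rounded, and for the siRNA experiment the deposited values are RPKM.

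The members, gene lists and comparisons were chosen with earlier results of these data known. The estimated counts went through edgeR 4.0.16 under R 4.3.3 (quasi-likelihood, TMM factors, default filter, 5 conditions in 1 model), and log2(RPKM + 0.1) with limma 3.58.1 (variance trend, genes above 0 in at least 3 libraries, 4 conditions in 1 model). DESeq2 1.42.0 was an alternative. Benjamini-Hochberg adjustment ran over all 15555 or 20369 genes tested, and a call is an adjusted p below 0.05. Intervals are at 95%. All 10 members were named by rule; of the 5 lists, counts were given and at most the 3 called genes with the largest change per comparison, at a mean of at least 1 RPKM or 1 on the log2 CPM scale. For likeness, the 3 genes with the highest Pearson r were named. Gene positions came from GENCODE v29 and promoters from RefSeq. Vehicle columns were matched to their group only, and the number of value columns not used is 0. Same-numbered replicates were checked for shared deviations and none correlated above 0.0647. Alternatives covered test, normalization, filter, pseudocount, vehicle columns, single replicates and replicate blocks. Each fit was tested on simulated data. Depth sets the precision of FOS, EGR1, FOSB, FOSL1 and IER3. Some genes that the rule selects are not reported here.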

Additional observations from a re-analysis of the deposited data

Results flagged for a closer look

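A difference between conditions that was tested itself and passed after adjustment over all genes was found for 17 values, given here on the log2 scale with their SE. Beside them, 49.8% of all genes passed between the times of DHT and 24.6% between those of enzalutamide. Between the ligands 15.8% passed at 4 h and 64.9% at 24 h, and 25.8% passed for the interaction of siRNA and enzalutamide.

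Between 24 h and 4 h of DHT, FOSL2 differed by -0.90 (SE 0.0567), JUN by -0.56 (SE 0.0515), EGR1 by -1.09 (SE 0.298), JUNB by 0.18 (SE 0.0595) and IER2 by 0.20 (SE 0.0448). The libraries of DHT at 24 h come from other sets than those at 4 h, so that set and time cannot be told apart in this comparison. Between 24 h and 4 h of enzalutamide, JUND differed by -0.13 (SE 0.0450) and IER2 by 0.14 (SE 0.0446), with the same limit. JUND passed narrowly there (adjusted p = 0.0488 with edgeR).

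For DHT against enzalutamide at 4 h the differences were 0.54 for JUN (SE 0.0515) and 0.93 for EGR1 (SE 0.293), between libraries of different sets. EGR1 passed narrowly there (adjusted p = 0.0468 with edgeR). At 24 h, where 1 of the 2 DHT libraries was in another set than enzalutamide, they were -1.22 for FOS (SE 0.328), -0.99 for FOSB (SE 0.240), -0.90 for FOSL2 (SE 0.0569), 0.14 for JUND (SE 0.0450) and -0.97 for EGR1 (SE 0.304).

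The response to enzalutamide differed between siGATA2 and siControl cells by -1.56 for FOS (SE 0.398), -0.70 for JUNB (SE 0.142) and -0.32 for IER2 (SE 0.0887). The last was lost without any 1 of 5 libraries, with adjusted p-values by limma of 0.0501 to 0.0558.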

How the results depend on the processing

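The count of members called was recomputed under each alternative for the ligand comparisons with vehicle and for the siRNA comparisons. Differences between times and between ligands were not checked in this way. The share of all genes called was not computed for the alternatives. For enzalutamide at 4 h it was 1 in the fit reported, 2 with no filter on low counts, 0 against vehicle columns of the same set and 0 with only the 2 groups compared. For enzalutamide at 24 h it was 2, and 1 against vehicle columns of the same set. Asking for a fold above 2 with an unadjusted p below 0.05 gave 0 members in each of the 4 ligand comparisons, 1 for enzalutamide in siControl cells (FOS), 1 for siGATA2 under vehicle (JUN), 1 for siGATA2 under enzalutamide (FOS) and 1 for the interaction (FOS). Leaving out 1 library at a time gave 0 to 2 calls for enzalutamide at 4 h, 1 to 2 at 24 h, 1 to 3 for DHT at 4 h, 2 to 3 for DHT at 24 h, 3 to 4 for enzalutamide in siControl cells, 0 in siGATA2 cells, 5 to 6 for siGATA2 under vehicle, 4 under enzalutamide and 2 to 6 for the interaction. Where this, or the limit to vehicle columns of the same set, left a lone library, it was assumed to vary like the other groups. EGR1 at 4 h of enzalutamide was called without replicate 1 (-1.40) and with no filter (-0.83). The cause was not tested. JUND under enzalutamide in siControl cells passed with quantile normalization (adjusted p = 0.0413 with limma), with a mean of at least 1 RPKM (0.0151) and with only both groups compared (0.0387). Of 1461 values of single genes, 32 lost and 19 gained the threshold, none reversed while called, and 59 uncalled ones changed sign. Same-numbered replicates did not deviate together, with correlations between -0.0714 and 0.0647. With the replicate block 1 member was called for enzalutamide at 4 h, 2 at 24 h, 2 for DHT at 4 h, where JUNB was lost (adjusted p = 0.0717 with edgeR), and 3 at 24 h, and the siRNA counts of the block fit were 3, 0, 5, 4 and 3. Depth limits FOS, EGR1, FOSB, FOSL1 and also IER3, the member with the lowest RPKM.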

Other observations

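Genes whose level followed a member most closely were ranked by Pearson r over all libraries of an experiment, which share their conditions, so that any gene with the same response scores high. Over the 12 siRNA libraries IRF2 (0.979), C17orf107 (0.970) and SMIM29 (0.964) were closest to FOS. WIPI2 (0.997), NECTIN2 (0.995) and LAPTM4A (0.995) were closest to JUN, while EGR1 reached only 0.851 with ZNF184, 0.832 with NUBPL and 0.821 with INTS7. Over the 10 ligand libraries KIAA2026 (0.974), LINC02035 (0.971) and MYO9A (0.969) were closest to FOS, PSD4 (0.945), ZNF248 (0.937) and FAM13A (0.925) to JUN, and STK11IP (0.938), DDX5 (0.920) and ZNF786 (0.919) to EGR1. No gene was named for the same member in both experiments.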
